A study of Mus musculus with 2 samples.

Results

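Trypsins and chymotrypsins are the endopeptidases that the exocrine pancreas makes as inactive precursors. The 9 genes described here are the trypsinogen genes Prss1, Prss2, Prss3, Try4, Try5 and Try10 and the chymotrypsinogen genes Ctrb1, Ctrc and Ctrl. Their probes were found by gene name, or by the description where the array carried an older name (Try5 as 1810049H19Rik). This gave 7 probes for 6 genes, out of 41174 gene probes for 27573 gene names on the array. Prss1, Try4 and Try10 had no probe of their own, and the listed accessions of 1 of the 2 Prss3 probes also name Prss1, Try10 and Gm5771. That probe is called the shared Prss3 probe here, and the other, which lists Prss3 alone, the Prss3-only probe (own probe in the plots). These names rest on the listed accessions alone. Whether any member probe also read transcripts of another trypsin or chymotrypsin gene was not tested.

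Trypsinogen is cut to trypsin in the gut by enteropeptidase, and trypsin then activates the other digestive precursors, chymotrypsinogen among them. Trypsin cuts after lysine and arginine, and chymotrypsin after large hydrophobic residues. Both are made in the acinar cells of the pancreas, and within the pancreatic lymph node such transcripts are known from stromal cells that display tissue antigens to T cells at low level, while the node itself lies against pancreatic tissue.

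Pancreatic lymph nodes of female NOD mice, an inbred strain that develops autoimmune diabetes, were compared at 16 weeks of age. The Cy5 channel of each of 2 two-colour Agilent arrays held RNA of 1 hyperglycemic mouse, with blood glucose above 500 mg/dl (n = 2 mice). In Cy3 each array carried one common pool of 2 euglycemic mice, of the same strain, sex and age, with blood glucose below 200 mg/dl. The mice carried no stated transgene or treatment, and the whole node was homogenized. Values are log2 ratios of hyperglycemic mouse over pool, so 1 means a doubled signal and a negative value a lower signal in the hyperglycemic mouse. The spread among euglycemic mice was not measured, and a dye effect of a single probe cannot be told apart from the difference between the groups, because Cy5 always held the hyperglycemic mouse.

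The promoters of the 4 genes with both a probe and an entry in the supplied RefSeq promoter table are shown because these genes differed in their ratios (below 0.2 for Prss2 and Ctrl, near 1 for Ctrb1 and Prss3-only). Each runs from 250 bases before to 50 bases after the gene's start, on build GRCm38.p6. Prss2 is at chr6:41521526-41521825, plus strand. Prss3 is at chr6:41377564-41377863, minus strand. Ctrb1 is at chr8:111690961-111691260, minus strand, and Ctrl at chr8:105933813-105934112, minus strand. Capitals mark 4 motifs searched on both strands, namely the TATA box TATAAA, the E boxes CACCTG and CAGCTG, and TTTCCC, the second box of the site bound by the acinar factor PTF1.
Prss2 promoter: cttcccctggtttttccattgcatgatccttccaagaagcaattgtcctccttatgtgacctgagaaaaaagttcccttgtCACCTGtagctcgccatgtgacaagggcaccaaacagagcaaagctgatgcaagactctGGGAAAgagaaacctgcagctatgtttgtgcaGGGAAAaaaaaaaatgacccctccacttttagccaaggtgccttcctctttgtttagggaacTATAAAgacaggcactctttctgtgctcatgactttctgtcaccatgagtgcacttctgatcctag
Prss3 promoter: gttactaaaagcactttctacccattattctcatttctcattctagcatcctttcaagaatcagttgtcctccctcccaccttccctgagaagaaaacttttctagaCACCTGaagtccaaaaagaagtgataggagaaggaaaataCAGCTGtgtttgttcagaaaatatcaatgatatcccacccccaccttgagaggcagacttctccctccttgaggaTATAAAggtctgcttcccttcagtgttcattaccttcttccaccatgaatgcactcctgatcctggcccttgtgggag
Ctrb1 promoter: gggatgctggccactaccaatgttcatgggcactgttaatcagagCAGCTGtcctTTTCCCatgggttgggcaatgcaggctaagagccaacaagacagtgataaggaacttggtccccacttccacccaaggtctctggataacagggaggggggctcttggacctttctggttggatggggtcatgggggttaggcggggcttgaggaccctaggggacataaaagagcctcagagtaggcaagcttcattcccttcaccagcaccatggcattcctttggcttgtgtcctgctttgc
Ctrl promoter: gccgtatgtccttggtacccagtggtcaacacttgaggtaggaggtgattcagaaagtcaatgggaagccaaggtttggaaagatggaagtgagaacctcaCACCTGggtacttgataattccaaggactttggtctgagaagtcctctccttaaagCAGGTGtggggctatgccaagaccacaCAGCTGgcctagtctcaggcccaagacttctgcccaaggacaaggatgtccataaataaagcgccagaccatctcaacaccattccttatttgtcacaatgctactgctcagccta

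All 4 trypsinogen promoters in the table (Prss1, Prss2, Prss3 and Try4) held TATAAA and neither chymotrypsinogen promoter did, where 13.6% of the 32851 promoters in the table held it. Among the 6 members with an entry, CACCTG stood in 5 (20.2% of all promoters), CAGCTG in 3 (16.3%) and TTTCCC in 3 (25.2%). The E box CANNTG followed after 4 bases by TTTCCC, written CANNTGNNNNTTTCCC and containing TTTCCC by construction, stood in 2 of the 6, Ctrb1 and Prss1. It stood in 0.0944% of all promoters, and in 1 of the 20 entries for other pancreatic proteases and acinar products, that of Cela1. This spacing was chosen after the promoters were read, and a match is a match of letters only.

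All 7 probes stood well above background in Cy3 and in Cy5 on each array, and none was lost to the filter that left 5072 tested probes. The ratios of Try5, Ctrb1 and the Prss3-only probe rose in the hyperglycemic mice, by 1.94-fold to 2.85-fold. Of the 7 probes 3 were called higher at an adjusted p under 0.05 (limma, Benjamini-Hochberg over all tested probes), where 25.1% of all tested probes were called higher, and 0 were called lower, where 18.4% were. With the same ratios, no member was called when probes above background in 1 channel were also tested (lowest adjusted p = 0.0582, Try5) or with no filter (0.363), where 0 of all probes were called. None of the 7 had a mean ratio below 0 in the processed ratios, where 2716 of the 5072 tested probes had one above 0. The lowest, Ctrl, was at 0.01. Their median log2 ratio was 0.49, with 0.29 on array 1 and 0.86 on array 2, and the median over all tested probes was 0.06. The 6 tested probes of at least the dimmest member's brightness, outside the pancreatic gene lists below, had a median of 0.44, with 3 called higher.

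**Figure D1:**
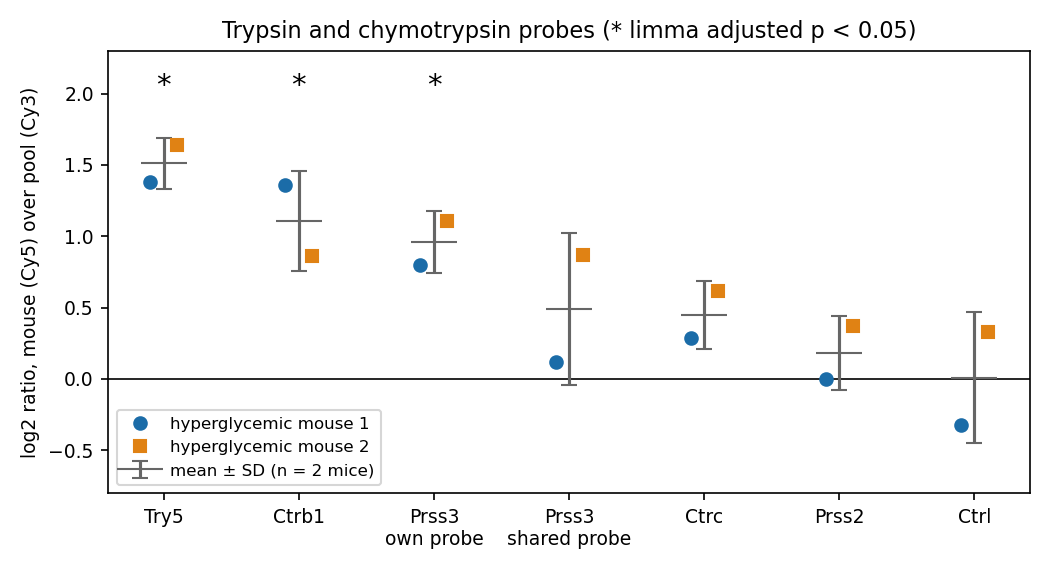
Log2 ratios of hyperglycemic mouse over euglycemic pool for each of the 7 trypsin and chymotrypsin probes, with both mice as points and the mean ± SD (n = 2) as bars; stars mark a limma adjusted p under 0.05. Try5, Ctrb1 and the Prss3-only probe lie above 0.7 in both mice, while the 2 mice of Ctrl fall on opposite sides of 0.

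Among the trypsinogens, Try5 (mm8 chr6:41241393-41241809) had processed signals of 131587 in the pool and 342897 in mouse 1 on array 1, and of 153345 and 478589 on array 2. Its log2 ratio was 1.38 in mouse 1 and 1.64 in mouse 2. Both mice were high and close to each other. The mean was 1.51 ± 0.18 (SD, n = 2), or 2.85-fold, with an adjusted p of 9.31e-04 in limma.

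Prss3, another trypsinogen of chromosome 6, gave different values from its 2 probes, placed at mm8 chr6:41303489-41303548 and chr6:41306448-41306507. The Prss3-only probe read 101048 in the pool and 175900 in mouse 1, then 131238 and 283986 on array 2. Its ratios of 0.80 and 1.11 gave 0.96 ± 0.22 (SD, n = 2; limma adjusted p = 0.00403), 1.94-fold higher. Both mice were high at that probe. The shared probe read 140800 and 153058 on array 1 and 164774 and 300864 on array 2, with ratios of 0.12 and 0.87. Here mouse 1 was near the pool and mouse 2 well above it, and the mean of 0.49 ± 0.53 was not called (adjusted p = 0.0881). In the processed ratios the Prss3-only probe exceeded the shared probe by 0.68 on array 1 and by 0.25 on array 2, a mean of 0.46 ± 0.31 (SD, n = 2). How much of the shared probe's signal came from Prss1, Try10 or Gm5771 was not tested.

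Prss2, whose probe lies closest to those of the T cell receptor constant genes (mm8 chr6:41453545-41453604), read 111706 in the pool and 111745 in mouse 1, and 142768 and 183996 on array 2. Its ratios were 0.00 and 0.37, with a mean of 0.18 ± 0.26 (adjusted p = 0.403, limma). Mouse 1 equalled the pool and mouse 2 was slightly above it. Try5 exceeded Prss2 by 1.38 and 1.28 on the 2 arrays, 1.33 ± 0.07 (SD, n = 2).

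Of the chymotrypsinogens, Ctrb1 (mm8 chr8:114575271-114575330), a major chymotrypsin precursor, read 89282 in the pool and 228419 in mouse 1, and 140197 and 254502 on array 2. Its ratios of 1.36 and 0.86 gave a mean of 1.11 ± 0.35 (limma adjusted p = 0.00325), or 2.16-fold. Both mice were above the pool, and in the processed ratios Ctrb1 was the only one of the 7 probes with the higher ratio in mouse 1. With normexp background correction and loess every member had the higher ratio in mouse 1 (Ctrl, for example, at 5.23 and 3.78). Ctrc (mm8 chr4:141110788-141110847) encodes chymotrypsin C, which regulates trypsinogen activation by cutting trypsin and its precursor. It read 164613 and 200655 on array 1 and 229581 and 353812 on array 2. Its ratios were 0.29 and 0.62, a mean of 0.45 ± 0.24 that narrowly missed the threshold (adjusted p = 0.0587). Ctrl, a chymotrypsin-like precursor (mm8 chr8:108821724-108821783), read 111585 and 89475 on array 1 and 180994 and 227780 on array 2. Its ratios of -0.32 and 0.33 lay on opposite sides of the pool, and their mean was 0.01 ± 0.46 (adjusted p = 0.982), which turned to -0.05 with median centring.

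Ordered by mean ratio, the probes ran from Try5 through Ctrb1, Prss3-only, shared Prss3, Ctrc and Prss2 to Ctrl. Most neighbours in that order had a mean difference no larger than its SD over the 2 arrays, which is a description and not a test. Try5 exceeded Ctrb1 by 0.40 ± 0.53, Ctrb1 exceeded Prss3-only by 0.15 ± 0.57, the shared probe exceeded Ctrc by 0.04 ± 0.29, and Prss2 exceeded Ctrl by 0.18 ± 0.20 (SD, n = 2). The exceptions were Prss3-only over the shared probe, given above, and Ctrc over Prss2, at 0.27 ± 0.02. The first of these turned round with normexp background correction and loess (Prss3-only 5.36, shared 5.44). It also did so with a background from negative controls (4.72 and 4.77). The ends of the order were far apart, with Try5 above Ctrl by 1.70 and 1.31 on the 2 arrays. Within the chymotrypsinogens, Ctrb1 exceeded Ctrl by 1.67 and 0.53, or 1.10 ± 0.81, and exceeded Ctrc by 0.65 ± 0.59. Each member probe was printed once per array. For scale, 43 other tested probes were printed 10 times, and the median SD among their spots was 0.18 on each array.

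The trypsinogen genes of the mouse lie inside the T cell receptor beta locus on chromosome 6, between its variable genes and its constant genes. Within 500 kb of the trypsin probes 36 gene probes had an mm8 position, and 12 of these were tested, 4 of them members. Past the Prss2 probe, at 14.6 to 24.3 kb, lay 4 probes of T cell receptor beta transcripts, LOC665500 (described as a beta-1 chain constant region) and 3 probes that the array names Tcrb-V13. All 4 were lower in the hyperglycemic mice, with means from -1.40 to -0.88 and SDs of at most 0.15 (limma adjusted p from 0.00106 to 0.00439), though with normexp and loess LOC665500 turned to 0.09 and 1 Tcrb-V13 probe to 0.13. LOC665500 was at -0.97 in mouse 1 and -0.96 in mouse 2.

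On the other side, 2 genes known by RIKEN names were tested. The list of 9 member genes does not hold them, and whether they are trypsins themselves was not tested. 1810009J06Rik, at 557.1 kb before the Prss2 probe, had ratios of 3.36 and 2.43, a mean of 2.89 ± 0.65 (limma adjusted p = 5.11e-04), or 7.44-fold higher. In the processed ratios it lay above every member in both mice. Its mean was 1.96 with normexp and loess (limma adjusted p = 0.0583). It was 2.06 with a background from negative controls and 2.25 with no background correction. In those fits its mean lay below that of every member, the lowest being Prss2 at 4.34, 3.72 and 2.61. With the linear dye factor alone it was at 2.58, below Try5 at 2.76. The 2 probes of 2210010C04Rik read 0.29 and 0.95 (mean 0.62 ± 0.47, adjusted p = 0.0375) and -0.10 and 0.33 (mean 0.12 ± 0.31, adjusted p = 0.615). E430024C06Rik, a thymic transcript between them and Try5, was at 0.06 and 0.18 and was not called. In the processed ratios, means of the member trypsinogen probes along the locus were thus above 0 and those of the receptor probes below it.

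**Figure D2:**
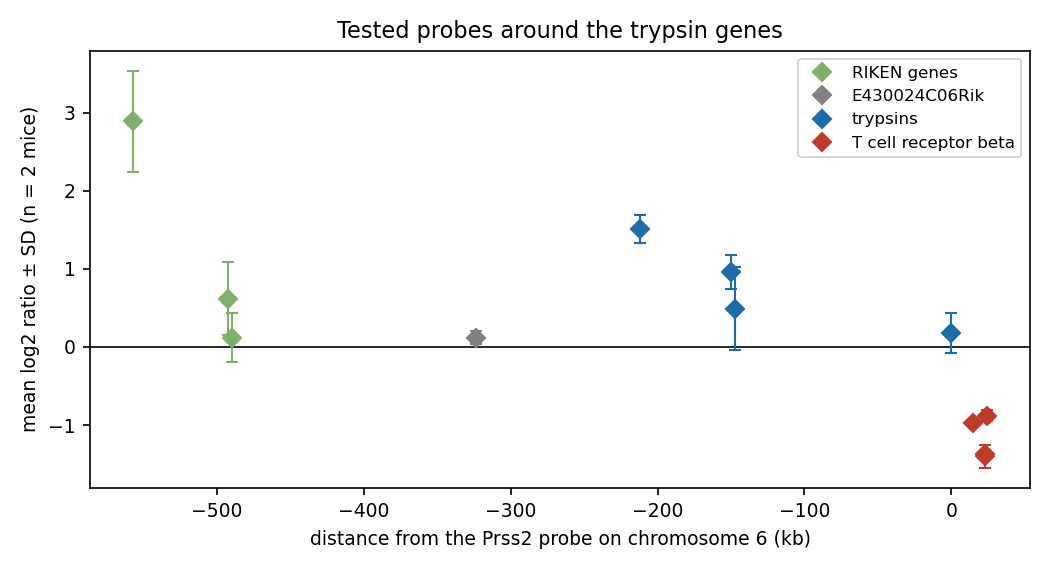
Mean log2 ratio ± SD (n = 2 mice) of the 12 tested probes within 500 kb of the trypsin probes, against distance from the Prss2 probe in kb. The 4 member trypsinogen probes lie between 0.18 and 1.51, and the 4 T cell receptor beta probes beyond Prss2 lie between -1.40 and -0.88 (2 of these turn to 0.09 and 0.13 with normexp and loess).

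T cell markers outside the locus were lower as well. Of the marker list for T cells, 5 probes were tested and 5 were called lower (18.4% of all tested probes were), from Lck at -1.15 ± 0.56 to Cd3g at -1.86 ± 0.15. With normexp and loess the 5 ran from -0.73 to -0.50 and 0 were called. Of the B cell markers 3 of 4 tested probes were called lower, but with normexp and loess 0 were called and 1 turned to 0.30. Among markers of lymph node stroma 3 of 6 tested probes were called higher (25.1% of all tested probes were), Cxcl13 at 0.71 ± 0.21 and Lyve1 at 0.71 ± 0.32 and 0.57 ± 0.26. Both Ccl19 probes were lower, at -0.82 ± 0.07 and -1.04 ± 0.00, but turned to 0.74 and 1.01 with normexp and loess. In that fit 0 of the 6 stroma probes were called. Deaf1, a factor known to promote the expression of tissue antigens in lymph node stroma, was higher at 0.99 ± 0.20 (limma adjusted p = 0.0034). With normexp and loess Deaf1 was at 0.36 and was not called. Aire was not tested. The part of these markers in the trypsin and chymotrypsin ratios was not tested. Fewer cells of a type and less RNA per cell cannot be told apart in such bulk samples.

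Regulators of trypsin were read at few probes. No probe was found for Spink1, Spink3, Serpina1a or Serpina1e. Enteropeptidase (Tmprss15, 2 probes, as Prss7 on the array), the inhibitor Spink4, A2m and the protease-activated receptors F2rl1, F2rl2 and F2rl3 were not well above background in either channel on either array, which makes 8 of 14 probes. The related inhibitor Pzp was above background in the pool alone. Of the 5 tested probes 1 was called higher (25.1% of all tested probes were) and 3 lower (18.4%). F2r, the thrombin receptor, was at 0.64 and 0.42, a mean of 0.53 ± 0.15 (limma adjusted p = 0.0304). That call was lost under both looser filters, the 3 fits from raw spot signals (means of 0.08 to 0.20) and the 3 dye corrections added afterwards (0.14 to 0.45; adjusted p from 0.0585 to 0.714). The alpha-1-antitrypsin genes with a probe, liver-made inhibitors of serine proteases, were all below the pool in the processed ratios. Serpina1c was at -1.07 ± 0.25 (limma adjusted p = 0.0029) and Serpina1b at -0.99 ± 0.84 (0.0221). Serpina1d was at -0.75 ± 0.41 (0.0164), which turned to 0.24 with normexp and loess and 0.02 with a background from negative controls. These genes are near-identical copies, so their 3 probes may read one another's transcripts. Serpini2, a serpin of the exocrine pancreas, was at -0.54 and 0.61, on both sides of the pool.

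Other liver-type transcripts were low in the same mice, Alb at -2.07 ± 1.18 and Fabp1 at -3.34 ± 1.11, and their part in the Serpina1 values was not tested.

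The other proteases of the pancreas split in both directions. Of 8 tested probes, 4 were called higher (25.1% of all tested probes were) and 2 lower (18.4%), with a median of 0.39. The carboxypeptidase Cpb1 was at 0.28 and 1.50 (0.89 ± 0.87, limma adjusted p = 0.0338) and Cpa1 at 0.79 and 0.60 (0.70 ± 0.14, adjusted p = 0.0112). Elastase Cela3b was at 0.65 ± 0.33. Elastase Cela1 was lower at both of its probes, -0.73 ± 0.70 and -0.83 ± 0.92, with mouse 1 at -1.22 and -1.48, but they turned to 3.28 and 2.41, in the same order, with normexp and loess.

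Of the 16 tested probes for other acinar products 6 were called higher (25.1% of all tested probes were) and 1 lower (18.4%), with a median of 0.47. Colipase (Clps) was at 0.90 ± 0.18, the lipase-related Pnliprp1 at 0.79 ± 0.15 and pancreatic lipase (Pnlip) at 0.67 ± 0.50 and 0.53 ± 0.21. Amylase Amy2a5 was the lower one, at -2.06 and -2.24, a mean of -2.15 ± 0.13 (limma adjusted p = 4.46e-04), and it turned to 1.44 with normexp and loess. Summed over the 18 probes of the fixed acinar marker list, which holds no trypsin or chymotrypsin, the processed signal on array 1 was 1169502 in the pool and 1194187 in the mouse, and on array 2 it was 1819427 and 2395236. These sums were taken after the dye correction described below and are no measure of acinar content. The acinar markers were higher at 6 and lower at 4 of 14 tested probes, and their part in the member ratios was not tested. Their median was 0.22 in the processed ratios, 1.13 with the linear dye factor alone and 4.23 with normexp and loess. None of the 16 islet marker probes, insulin and glucagon among them, could be tested, and 0 of them were well above background in the hyperglycemic channel on both arrays.

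Of the factors and receptors of acinar cells 3 probes were tested. Bhlha15, the secretory cell factor also called MIST1, was lower at -0.75 ± 0.18 (limma adjusted p = 0.00906). That call was lost with normexp and loess (-0.16, limma adjusted p = 0.37). Rbpjl, the acinar partner in PTF1, was at -0.06 ± 0.18, and the cholecystokinin receptor Cckar at 0.38 ± 0.07 (adjusted p = 0.0822). Among serine proteases of other cells 3 of 11 tested probes were called higher (25.1% of all tested probes were) and 3 lower (18.4%), with a median of 0.13. Htra1 was highest, at 0.76 ± 0.00, followed by complement C2 at 0.60 ± 0.18 (0.13 ± 0.29 at its other probe) and hepsin (Hpn) at 0.56 ± 0.08. Haptoglobin (Hp), a protease homologue without activity, was lowest at -1.76 ± 0.46, followed by adipsin (Cfd) at -1.63 ± 0.03 and the mitochondrial protease Htra2 at -1.15 ± 0.17. Duct marker Tff2 was at -0.74 ± 0.01 (0.49 with normexp and loess), and no mast cell marker was tested.

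**Figure D3:**
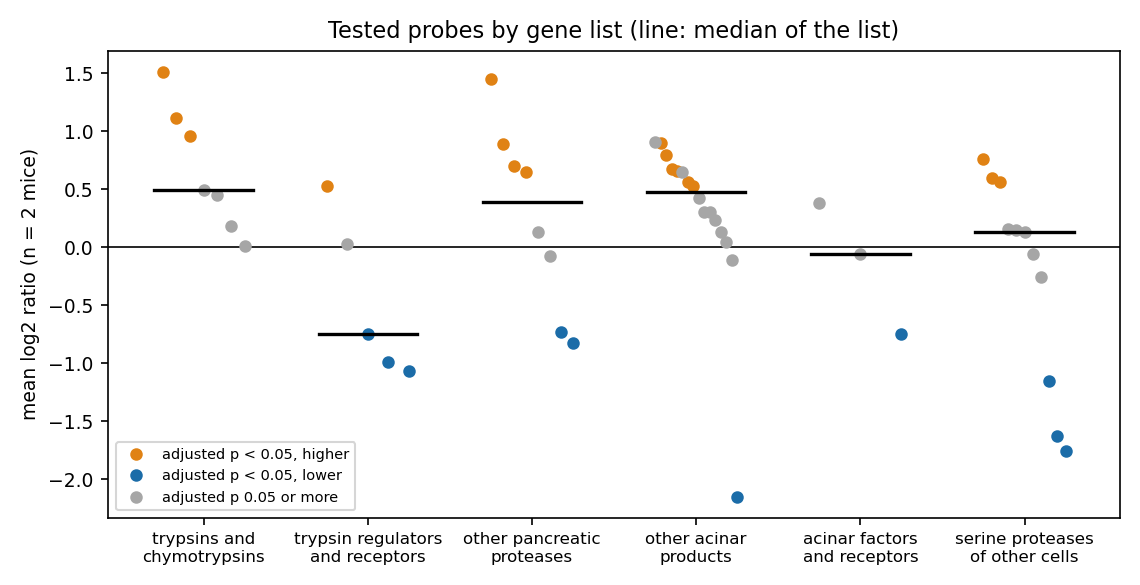
Mean log2 ratio (n = 2 mice) of each tested probe in 6 gene lists, with the list's median as a line and limma calls at an adjusted p under 0.05 in colour. The 7 trypsin and chymotrypsin probes run from 0.01 to 1.51, and the other pancreatic proteases have a median of 0.39.

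The 5 gene probes whose pair of ratios lay nearest to the median pair of the members (0.29 and 0.86) were, with Euclidean distances over the 2 arrays in log2 units, Fkbp11 (0.043), Svbp (0.045), Arfgap3 (0.051), Ncoa6 (0.053) and Prpf18 (0.064). Fkbp11, a folding enzyme of the secretory pathway, was at 0.30 and 0.90. The 5 probes read only 47.1 to 149 in raw Cy5, over a median background of 35, where the members read 3342 to 13145. With 2 arrays the likeness rests on 2 values a probe.

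The size of the member ratios depended on the dye correction. Before dye normalization the background-subtracted Cy5 signal was 0.962% of Cy3 at the median tested probe on array 1 and 2.05% on array 2. The 7 members lay between 2.15% (Prss2) and 7.04% (Try5) on array 1, and between 5.88% (Prss2) and 16.5% (Try5) on array 2. Each member's Cy5 share was therefore above that of at least 94.0% of tested probes on array 1 and at least 97.4% on array 2. The scanning software corrected this with a linear factor and a LOWESS curve over brightness. Only 21 tested probes were at least as bright as the dimmest member, 15 of them members or other probes of the acinar lists. All 7 members were among the spots to which the curve was fitted on each array.

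**Figure D4:**
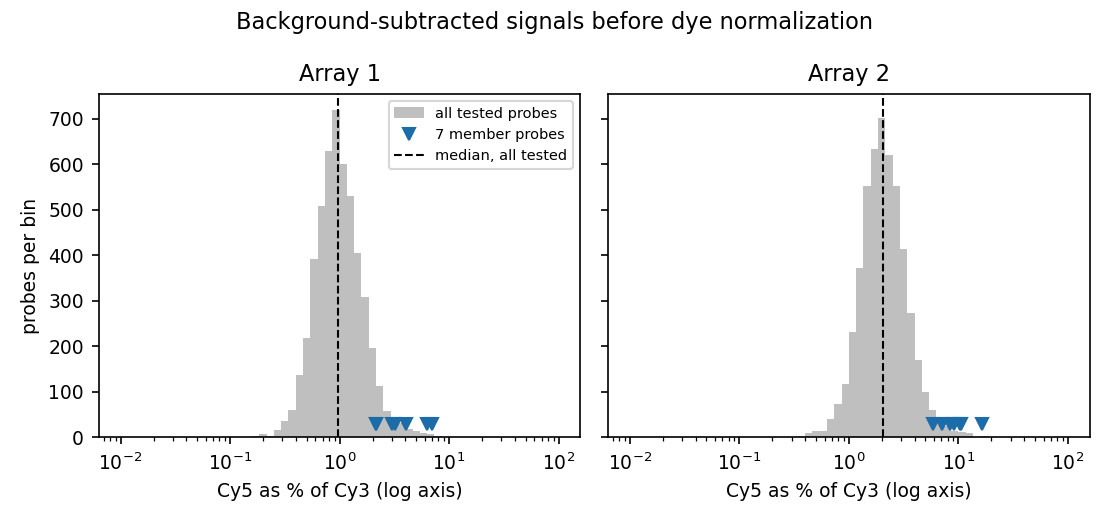
Cy5 signal as a percentage of Cy3 signal, both background-subtracted and before dye normalization, for all tested probes (histogram, log axis) and the 7 member probes (triangles) on each array. The members lie at 2.15% to 7.04% on array 1 and 5.88% to 16.5% on array 2, above the medians of 0.962% and 2.05%.

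With the linear factor alone and no LOWESS, a setting chosen after the data were seen, all 7 members were called higher, where 11.2% of all tested probes were. Their means then ran from 1.16 for Prss2 and 1.30 for Ctrl to 2.25 for Ctrb1 and 2.76 for Try5, against a median of -0.17 over all tested probes. A curve fitted without the probes of the acinar lists was also chosen afterwards, and 2210010C04Rik stayed in that fit. Try5 was then at 1.51, Ctrb1 at 1.15, Prss3-only at 0.96, the shared probe at 0.72 and Ctrl at 0.29, and 4 were called higher (21.3% of all). The 6 other probes of that brightness, which are in none of the acinar lists used here, had processed ratios from 0.11 to 1.48 (median 0.44, 3 called higher). They were Pigt at 1.48 ± 0.39, the ribosomal protein genes Rplp1 at 0.91 ± 0.04, Rplp2 at 0.53 ± 0.12, Rps23 at 0.34 ± 0.10 and Rps18 at 0.11 ± 0.20, and a probe of 2210010C04Rik at 0.12 ± 0.31. Whether acinar cells make 2210010C04Rik, which lies beside the trypsin genes on chromosome 6, was not tested. What the spot brightness contributes to the member ratios was not tested.

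Starting from raw spot signals with loess, the member means were 4.34 to 6.56 with normexp background correction (2 of 7 called, 1.85% of all; SDs 1.02 to 2.19), 3.72 to 5.82 with a background from negative controls (7 called, 19.3% of all) and 2.61 to 4.48 with no background correction (7 called, 19.7% of all). With normexp the calls of Try5 (adjusted p = 0.0514), Ctrb1 (0.0712) and Prss3-only (0.05) were lost, and the 2 probes called were Ctrl (0.042) and the shared Prss3 probe (0.0458), neither of them called in the processed ratios (limma). The level of the members relative to the pool thus moved with the correction, and their order moved less. Of the 13 settings, 6 hold the processed ratios or shift all probes alike on an array and could not reorder the members. In the other 7 Try5 again had the highest mean and Ctrb1 the second, and the lowest was Prss2 in 6 and Ctrl in 1, where the processed ratios had Ctrl lowest. Try5 exceeded Ctrl by 1.20 to 2.05 and Prss2 by 1.27 to 2.22 over the settings, which read the same 2 arrays.

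**Figure D5:**
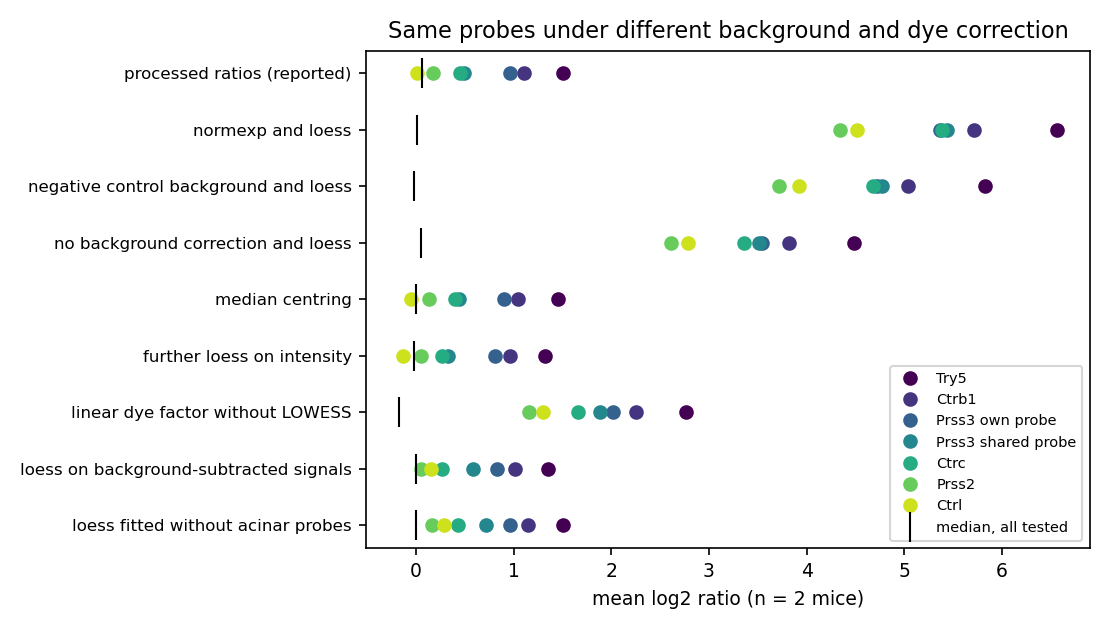
Mean log2 ratio (n = 2 mice) of each member probe under 9 corrections of background and dye, with the median of all tested probes as a black tick; 4 settings that leave the processed ratios as they are, or nearly so, are not drawn. Try5 is at the right end of every row, from 1.32 to 6.56, and Ctrl or Prss2 at the left end.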

How the data were processed

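Per the file headers, Agilent Feature Extraction 10.7.3.1 turned the authors' scans of Agilent-014868 arrays into spot and background intensity values. The deposited processed intensity had background removed with spatial detrending and was then dye-corrected by a linear factor followed by LOWESS, per the file headers. The deposited log ratio is log10 of Cy5 over Cy3, converted here to log2. The software's own p-value for each spot, named as such per the file headers, was left aside. For 5098 probes the authors also deposited a table of log2 ratios (Cy5 over Cy3), and its columns have medians of 0.079 and 0.0283. How its probes were chosen is not given in the sources used here. For the 5071 gene probes also tested here it differed from the scanner ratio by at most 2.77e-06.

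Per the labels, 1 ug of total RNA was labelled for each channel. Spots marked by the software as outliers or non-uniform (614 and 266 over all spots) were left out, no spot was saturated, and replicate spots were averaged. The median Cy3 signal was 234 and 81.2 over backgrounds of 31 and 31.5, and the median Cy5 signal 37.7 and 38.2 over 35 on both arrays. Of 41174 gene probes, 23374 were named by accession, 6733 by symbol and 2919 by synonym through the supplied GRCm38.p6 gene table, and 8148 kept the array's name. Probe positions are mm8. Probes that stood well above background in Cy3 and in Cy5 on each array (5072) were tested with limma 3.58.1 in R 4.3.3, as the mean log2 ratio against 0 (moderated, two-sided, 1 residual degree of freedom), adjusted by Benjamini-Hochberg at 0.05. Every adjusted p is from limma. The fit was tested on simulated data, where the share of false calls exceeded that threshold in several draws. Ratios of the 2 arrays correlated at r = 0.83 across tested probes, which are not independent replicates. Both arrays were on one slide, so no slide batch could be tested. The number of arrays limits the precision.

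The members and lists were chosen with earlier results of these data known. Named were all member probes, tested regulators, the 3 highest and 3 lowest called genes of each other list, tested probes within 500000 bases of the trypsin probes and the 5 nearest probes in ratio. Some results under this rule are not reported here. Alternatives were other filters, background corrections, dye normalizations, the deposited table, a variance trend and each mouse alone. Promoters are from RefSeq. No probe or protein sequence was used here.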

Additional observations from a re-analysis of the deposited data

How the results depend on the processing

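The 3 member probes called higher (Try5, Ctrb1 and Prss3-only) kept that call with the deposited table, median centring, a further loess and a variance trend, and lost it with normexp and loess (adjusted p = 0.0514, 0.0712 and 0.05, limma) and with both looser filters. Against 1275 probes called higher and 934 lower, keeping probes above background in 1 channel gave 0 and 0 (3396 at an unadjusted p under 0.05, limma), and no filter gave 0 and 0 (4295). Member calls were then 0 in both (3 and 2 at an unadjusted p under 0.05), with the same ratios. Normexp with loess gave 94 higher and 0 lower (1159 unadjusted in either direction) and a member median of 5.38. The member median was 4.72 with the negative-control background and 3.51 with no background correction, and 7 members were called in each. The linear factor without LOWESS, one of 3 dye corrections chosen after seeing the data, called 568 probes higher and 7 members, with a member median of 1.88. The causes were not tested.

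Some named probes changed sign. Ctrl was at -0.05 with median centring and -0.13 with a further loess, which also put a 2210010C04Rik probe at -0.04. E430024C06Rik was at -0.15 (negative controls), -0.06 (no background correction), -0.34 (linear factor), -0.03 (loess on background-subtracted signals) and -0.03 (loess without acinar probes), and Serpini2 was at -0.02 (median centring), -0.06, -0.05 and -0.04 (the added 3 in that order). With normexp LOC665500 was at 0.09, a Tcrb-V13 probe at 0.13, Serpina1d at 0.24, the Cela1 probes at 2.41 and 3.28 and Amy2a5 at 1.44. With negative controls Serpina1d was at 0.02, Cela1 at 2.00 and 2.76 and Amy2a5 at 0.96, and with no background correction Cela1 was at 1.13 and 1.72 and Amy2a5 at 0.02. One Cela1 probe was at 0.33 with the linear factor. With 1 mouse left out the member median ran from 0.29 to 0.86, a value with no test. No paired analysis was possible because one pool served as the control of both mice. Cy5 signals close to background limit what could be tested, and with 2 mice and an unreplicated pool an adjusted p describes the spread between these arrays.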
